A study of Homo sapiens with 10 samples.

Results

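The HOX genes were compared between EA.hy926 and HMEC-1 cells, 2 immortalized human endothelial cell lines. Members were the protein-coding genes whose Ensembl identifier carried, in GENCODE release 44, a symbol made of HOX, a cluster letter from A to D and a number. This rule used no expression value. It found 39 genes among the 60448 genes of the count table, of which 19578 matched a protein-coding gene. They are described by cluster and by paralog position, the number in the symbol, which runs from 1 at the 3′ end of a cluster to 13 at its 5′ end.

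HOX genes encode homeodomain transcription factors that give cells along the body axis and the limb their positional identity. They lie side by side on the chromosome in the order in which they are used from head to tail, and cells taken from different parts of an adult body usually keep the HOX combination of their origin. In endothelium, HOXD3, HOXB3 and HOXA9 are known for roles in activated or angiogenic cells, and HOXA5 and HOXD10 for roles in quiescent cells.

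On GRCh38, the HOXA cluster holds 11 of these genes on the minus strand of chromosome 7. The HOXB cluster holds 10 on the minus strand of chromosome 17 (chr17:48528526-48728750). The HOXC cluster holds 9 on the plus strand of chromosome 12 (chr12:53938831-54056030), and the HOXD cluster holds 9 on the plus strand of chromosome 2 (chr2:176092721-176190907).

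Each line was represented by 5 untreated libraries, described as independent biological replicates of confluent flasks. EA.hy926 is a hybrid line made by fusing human umbilical vein endothelial cells with A549 lung carcinoma cells, and was grown in Advanced DMEM with 5% FBS. HMEC-1 is a dermal microvascular line carrying the SV40 large T antigen, and was grown in another basal medium with FBS at 10%, hydrocortisone at 1 μg/mL and epidermal growth factor at 10 ng/mL. Both lines are labelled wild type, each is a single line, and line and medium cannot be told apart. In such bulk RNA, fewer cells with a transcript and less transcript per cell cannot be told apart either.

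The EA.hy926 libraries totalled 34846046 to 39899324 counts each, and the HMEC-1 libraries 33391640 to 43877224. Of 14 endothelial markers, 12 reached a mean of 1 CPM (counts scaled to the library size) in EA.hy926 and 14 in HMEC-1, and EMCN was at 3 counts or fewer in every EA.hy926 library. Their levels summed to 6172 to 6902 CPM in EA.hy926, against 2253 to 2317 CPM in HMEC-1. Of 10 epithelial markers, 3 reached 1 CPM in EA.hy926 and 4 in HMEC-1, with sums of 1275 to 1388 and 424 to 486 CPM, and CDH1, ESRP1, GRHL2 and ELF3 were at 3 counts or fewer throughout. Of 10 fibroblast markers, 2 reached 1 CPM in EA.hy926 and 6 in HMEC-1. By the edgeR test and thresholds given below, all 7 tested fibroblast markers were lower in EA.hy926. Of 14 endothelial markers tested, 7 were higher and 2 lower, and of 6 epithelial markers tested, 2 were higher and 1 lower. Over all genes tested, 19.1% were higher and 16.4% lower. EMCN and, among the fibroblast markers, COL1A2, COL3A1, PDGFRA and POSTN were at 3 counts or fewer in every EA.hy926 library. Those of them that were tested passed the filter on low counts through HMEC-1, so their direction is tied to that filter. The summed fibroblast level was 283 to 305 CPM against 1131 to 1210 CPM, with DCN and LUM at 0 in every library. These marker differences move with the line in every HOX comparison given here, and their part in the results was not tested.

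The sequence just upstream of the RefSeq start of 3 HOX genes is shown, chosen by their differences between the lines. HOXA11 and HOXA13 are adjacent members of the table on chromosome 7 that differed between the lines in opposite directions, and HOXD10 had the lowest log2FC of the HOXD cluster. Each window holds the 250 bases before the RefSeq start of the gene on GRCh38.p14, 5′ to 3′ on the strand of the gene, with every CG dinucleotide in capitals. They lie at chr7:27185233-27185482 (minus strand), chr7:27200092-27200341 (minus strand) and chr2:176116528-176116777 (plus strand). The HOXD10 window lies inside the GENCODE span of HOXD10, which begins further upstream than the RefSeq start, whereas the other windows end at the GENCODE start.
HOXA11: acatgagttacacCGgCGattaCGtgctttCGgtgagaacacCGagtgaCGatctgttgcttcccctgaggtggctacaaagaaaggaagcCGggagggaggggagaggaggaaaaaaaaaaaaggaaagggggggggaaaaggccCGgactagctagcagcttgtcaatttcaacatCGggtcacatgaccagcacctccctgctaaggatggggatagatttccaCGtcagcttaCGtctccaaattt
HOXA13: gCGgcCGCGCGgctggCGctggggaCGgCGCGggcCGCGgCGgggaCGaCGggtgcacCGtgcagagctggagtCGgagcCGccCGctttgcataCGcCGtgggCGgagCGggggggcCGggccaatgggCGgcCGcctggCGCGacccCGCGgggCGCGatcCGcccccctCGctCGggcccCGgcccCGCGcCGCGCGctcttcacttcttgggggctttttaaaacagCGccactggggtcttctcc
HOXD10: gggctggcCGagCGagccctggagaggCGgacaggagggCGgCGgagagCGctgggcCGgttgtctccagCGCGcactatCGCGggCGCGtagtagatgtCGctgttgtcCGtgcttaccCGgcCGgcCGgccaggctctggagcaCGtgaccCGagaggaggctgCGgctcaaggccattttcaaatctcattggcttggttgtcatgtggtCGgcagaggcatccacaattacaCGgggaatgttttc
The HOXA11 window held 11 CG dinucleotides, the HOXA13 window 40 and the HOXD10 window 23, beside a median of 11 over 27303 such windows (quartiles 3 and 23). All 250 bases of the HOXA11 window fall in annotated exons of the antisense transcript HOXA11-AS and of an overlapping gene model, whereas the HOXA13 and HOXD10 windows hold no annotated exon. These are descriptions of the sequence, and no measurement of methylation or factor binding was made. Only 20 of the 39 HOX genes (51.3%) had such a window, so no comparison of windows across the members was made.

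HOX transcripts made up a small share of both transcriptomes and a larger one in HMEC-1. Their counts summed to 5052 to 5674 per EA.hy926 library and to 7720 to 9946 per HMEC-1 library. As a share of all counts EA.hy926 reached 0.0143% ± 0.000251 and HMEC-1 0.0232% ± 0.000494 (SD, n = 5 each), and the ranges of the lines did not overlap. A mean of at least 1 CPM was reached by 19 members in EA.hy926 and 24 in HMEC-1, with 18 in both. HOXB13 was the single member at that level in EA.hy926 alone. HOXA6, HOXB4, HOXB8, HOXC10, HOXD3 and HOXD10 were the 6 at that level in HMEC-1 alone. At 3 counts or fewer in every library, here called not detected, were 8 members in EA.hy926 and 5 in HMEC-1. A count of 3 was worth 0.0781 to 0.0904 CPM in the EA.hy926 libraries, against 0.0651 to 0.0856 CPM in those of HMEC-1.

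**Figure D1:**
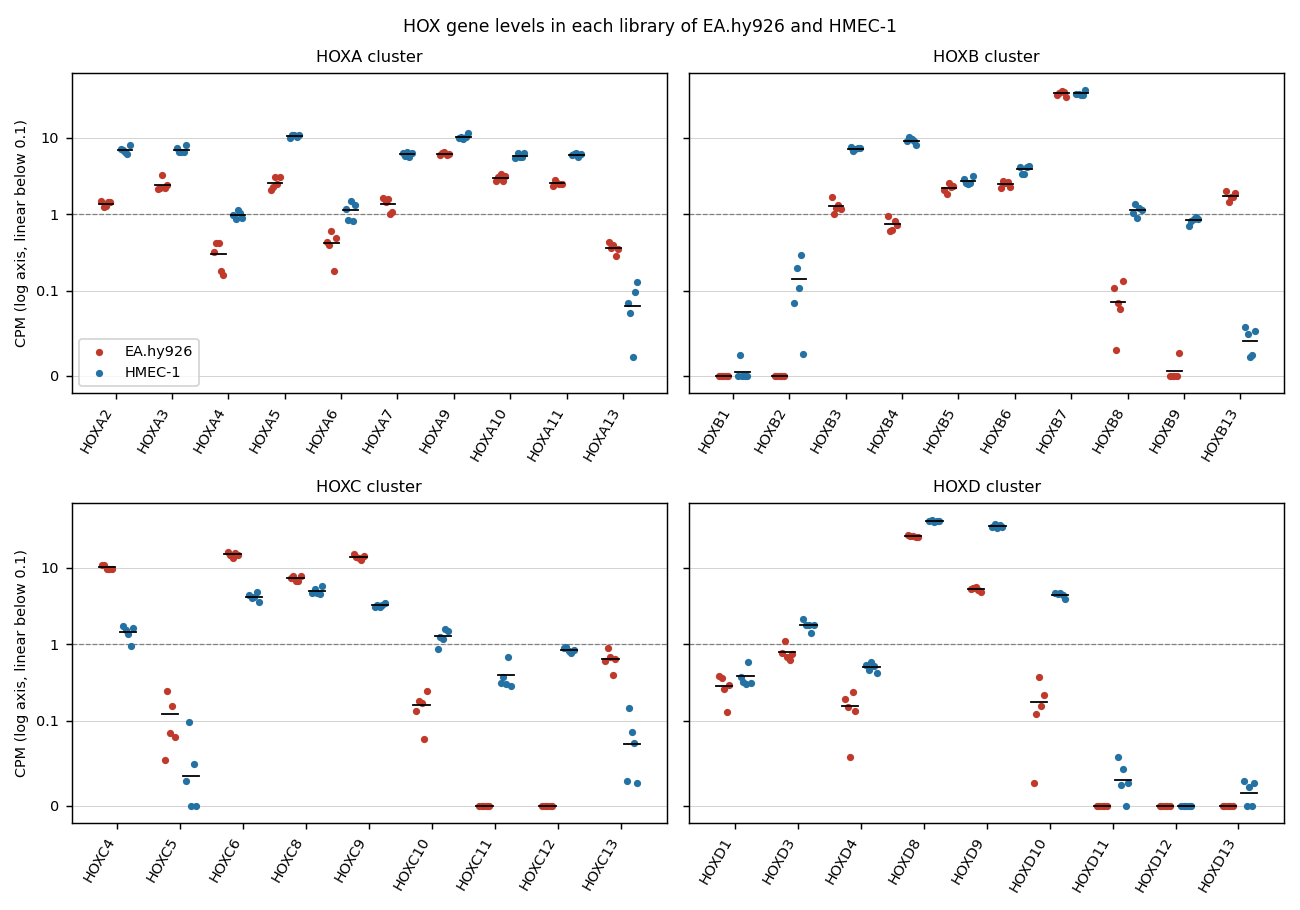
CPM of 38 of the 39 HOX genes in each library (points, 5 per line) with the mean of each line (bar), by cluster, on an axis that is logarithmic above 0.1 CPM and linear below. The dashed line marks 1 CPM, and HOXB7, HOXD8 and HOXD9 hold the highest values in HMEC-1.

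Levels of different genes were compared per length, as CPM per kilobase of annotated exon (RPKM). HOXB7, a member known for inducing FGF2, was the most abundant HOX transcript in both lines, with 25.0 ± 1.76 RPKM in EA.hy926 against 25.1 ± 1.51 RPKM in HMEC-1 (SD, n = 5). In EA.hy926 it was followed by HOXD8 at 9.89 ± 0.262, HOXC9 at 8.29 ± 0.567, HOXC6 at 4.30 ± 0.249 and HOXC4 at 3.64 ± 0.277 RPKM. The ranges of HOXB7, HOXD8, HOXC9 and HOXC6 did not overlap one another, whereas those of HOXC6 and HOXC4 did. In HMEC-1 it was followed by HOXD9 at 18.6 ± 0.865, HOXD8 at 15.6 ± 0.347, HOXA5 at 6.19 ± 0.245 and HOXB4 at 4.61 ± 0.388 RPKM, with no overlap between neighbours in this order. From HOXA9 down, with 3.42 RPKM in HMEC-1, most neighbours in the order overlapped. With the length of the canonical transcript in place of all exons, HOXC6 moved to 9.01 RPKM in EA.hy926 and 2.53 RPKM in HMEC-1. The 5 leading genes of EA.hy926 and the 4 leading genes of HMEC-1 kept their places, but HOXD8 at 9.93 ± 0.263, HOXC9 at 9.37 ± 0.641 and HOXC6 at 9.01 ± 0.523 RPKM then overlapped from neighbour to neighbour in EA.hy926, and HOXA9 passed HOXB4 in mean level in HMEC-1.

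**Figure D2:**
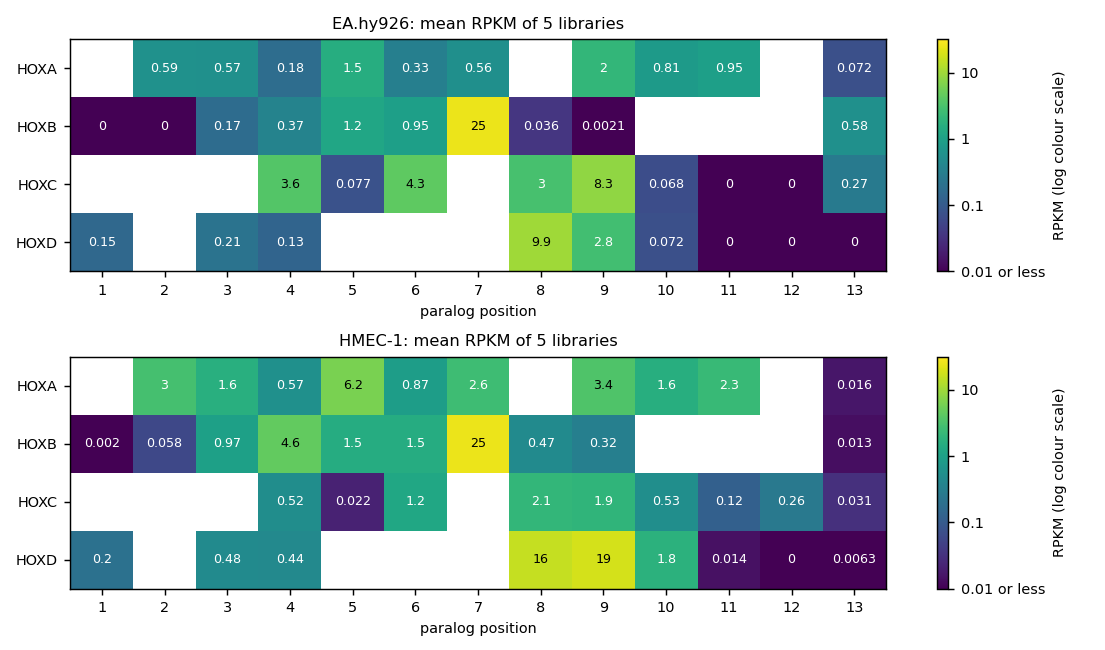
Mean RPKM over 5 libraries of 38 HOX genes (colour, log scale, value printed in the cell), with clusters as rows and paralog positions as columns. Blank cells are positions with no gene of that cluster or with a gene not shown. HOXB7 holds the highest value in both grids, and the HOXC row is brighter at positions 4 to 9 in EA.hy926 than in HMEC-1.

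The clusters contributed unequally to the summed HOX level. HOXC genes held 28.1% ± 1.73 of the summed HOX RPKM in EA.hy926 and 6.55% ± 0.171 in HMEC-1 (SD, n = 5). HOXD genes showed the opposite, with 18.9% ± 0.346 in EA.hy926 and 36.5% ± 1.38 in HMEC-1, and HOXA genes 12.5% ± 0.668 and 23.1% ± 0.830. HOXB genes held 40.5% ± 1.93 and 33.9% ± 0.760, of which HOXB7 alone was 35.8% ± 1.94 and 24.6% ± 0.975. The ranges of the lines did not overlap in any of the 4 clusters. With canonical transcript lengths the means of HOXB and HOXD changed places in HMEC-1, at 34.3% and 33.2%. Their ranges overlapped there (33.8% to 35.6% and 31.0% to 34.3%), as they did over all exons (33.4% to 35.2% and 34.2% to 37.8%).

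**Figure D3:**
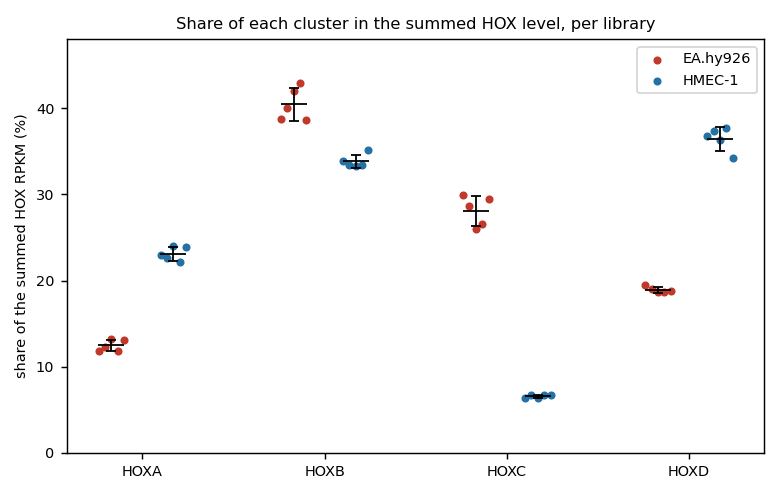
Share of each cluster in the summed HOX RPKM of each library (points, 5 per line), with the mean and SD over libraries (bars). The HOXC points lie between 26.0% and 29.9% in EA.hy926 and between 6.35% and 6.69% in HMEC-1.

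Differences between the lines were tested with edgeR on all genes with sufficient counts, with the Benjamini-Hochberg correction applied to the 16310 genes that entered. A gene was called where the adjusted p was under 0.05 and the log2FC, EA.hy926 over HMEC-1, was above 1 or below -1. Of the 39 HOX genes, 33 were tested and 24 were called, beside a background of 35.5% of all genes tested. Of these, 6 were higher in EA.hy926, beside a background of 19.1%, and 18 were lower, beside 16.4%. The median log2FC of the 33 was -1.25, and -0.01 over all genes tested. The adjusted p alone was under 0.05 for 31 members, beside 85.8% of all genes. The CPM ranges of the lines did not overlap for 30 members, beside 77.4% of all genes tested. Of these, 7 members were higher and 23 lower in EA.hy926, beside 38.3% and 39.2% of all genes tested.

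These counts are tied to the filter on low counts, because 13 of the 33 members had at least 10 counts in every library of 1 line only, 10 of them in HMEC-1 and 3 in EA.hy926. Such members passed through the line in which they were high. Among the 20 members with at least 10 counts in every library of both lines, 12 were called, 3 higher and 9 lower in EA.hy926, beside a background of 24.8% of the genes filtered in this way. The background in each direction was 14.2% higher and 10.7% lower. The 6 members not tested were HOXB1, HOXB2, HOXC5, HOXD11, HOXD12 and HOXD13. HOXB2 was at 0 in each EA.hy926 library and had 1 to 12 counts in HMEC-1, HOXC5 had 2 to 8 and 0 to 4, and the other 4 had at most 2 counts in any library.

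**Figure D4:**
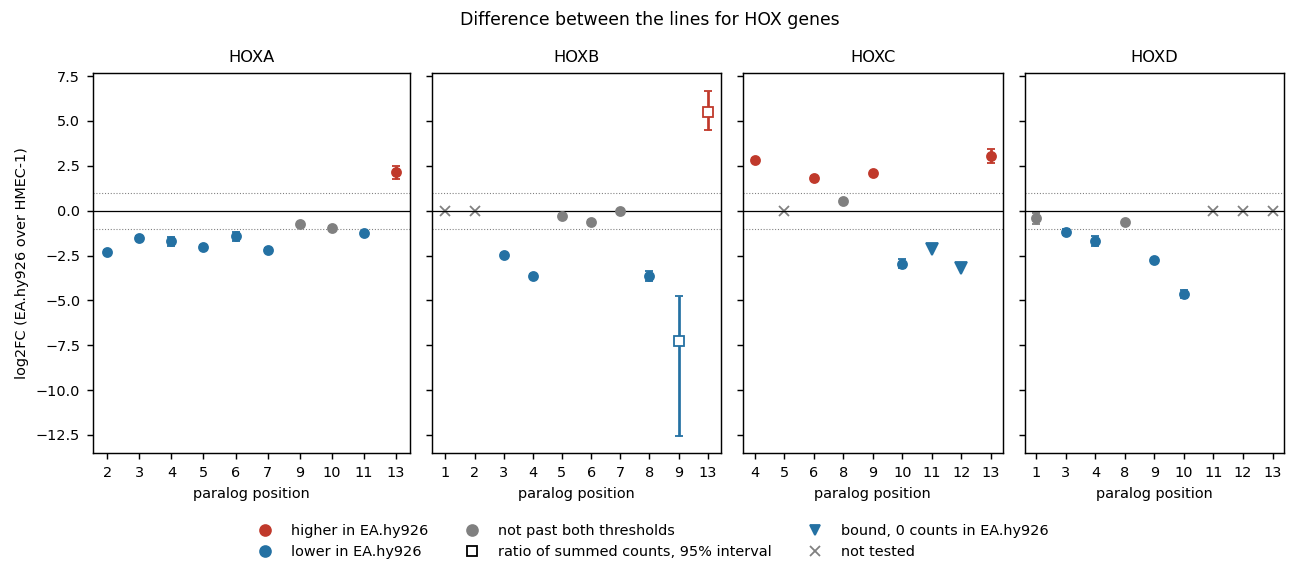
log2FC (EA.hy926 over HMEC-1) of 32 of the 33 tested HOX genes by cluster and paralog position, with standard errors for circles, exact 95% counting intervals for squares (HOXB9 and HOXB13) and a bound for triangles (HOXC11 and HOXC12, at 0 counts in EA.hy926). Crosses at 0 mark the 6 genes not tested and carry no value, and dotted lines mark 1 and -1. Position 13 is above the upper line in HOXA, HOXB and HOXC, and HOXC has called genes above the upper line at positions 4, 6 and 9 and below the lower line at positions 10 to 12.

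In the HOXA cluster, 7 of 11 genes were called lower in EA.hy926, and 1 was called higher, beside 16.4% and 19.1% of all genes tested. HOXA4 and HOXA6 had at least 10 counts in every library of HMEC-1 only, and HOXA13 of EA.hy926 only. The direction of these calls is tied to the filter on low counts. HOXA9 and HOXA10 were not called, although each had a lower CPM in all 5 EA.hy926 libraries than in any HMEC-1 library. They share 27.0% and 26.3% of their exonic bases with other genes, HOXA10-AS among them. HOXA10 stood near the 2-fold limit (log2FC = -0.96) and was called lower with library totals (log2FC = -1.10) and without EA.hy926 replicate 3. HOXA5, which restrains angiogenic behaviour of endothelial cells, was the most abundant HOXA gene of HMEC-1. It had 77, 75, 107, 96 and 115 counts in EA.hy926 and 354, 440, 508, 420 and 421 in HMEC-1. HOXA5 was thus 4.09-fold lower in EA.hy926 (log2FC = -2.03, SE 0.0917, adjusted p = 7.3e-15). HOXA9, a haematopoietic and endothelial regulator, was the most abundant HOXA gene of EA.hy926. Its counts were 222, 213, 231, 227 and 227 in EA.hy926 and 352, 419, 449, 422 and 436 in HMEC-1. The groups did not overlap, but HOXA9 stayed within the 2-fold limit (log2FC = -0.74, SE 0.064, adjusted p = 6e-10).

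The lowest log2FC values of the HOXA cluster belonged to HOXA2 and HOXA7. HOXA2 (chr7:27100354-27102686) is the selector gene of the second branchial arch. It had 55, 41, 45, 56 and 54 counts in EA.hy926 and 248, 280, 302, 251 and 304 in HMEC-1, a 4.97-fold difference (log2FC = -2.31, SE 0.103, adjusted p = 5.3e-15). No EA.hy926 library came near the HMEC-1 libraries. HOXA7 (chr7:27153716-27157936) had 61, 48, 55, 39 and 40 counts in EA.hy926 and 224, 237, 301, 230 and 246 in HMEC-1 (log2FC = -2.19, SE 0.12, adjusted p = 2.2e-13). As 62.5% of its exonic bases are shared with the antisense transcript HOXA-AS3 and a strand setting of the counting is not given in the sources used here, reads of HOXA7 and HOXA-AS3 cannot be told apart there. The other called HOXA genes of this direction besides HOXA11, namely HOXA3, HOXA4 and HOXA6, had log2FC values between -1.70 and -1.43. HOXA4 shares 47.8% of its exonic bases with other genes, HOXA6 40.1% and HOXA3 19.85%, HOXA-AS3 among them in each case. HOXA-AS2, which overlaps HOXA3 and HOXA4, was itself lower in EA.hy926 (log2FC = -2.81). Part of the reads of these genes may thus be antisense, which was not tested. HOXA6 lost its call when tested against a fold limit of 2 (glmTreat, adjusted p = 0.0519).

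At the 5′ end of the HOXA cluster, the neighbours HOXA11 and HOXA13 were called in opposite directions. HOXA13 entered the test through EA.hy926, the line in which it was high, so its direction is tied to the filter on low counts. HOXA11 (chr7:27181157-27185232), which patterns the forearm and the uterus, had 86, 93, 89, 97 and 92 counts in EA.hy926 and 208, 249, 294, 226 and 234 in HMEC-1. It was lower in EA.hy926 (log2FC = -1.25, SE 0.0853, adjusted p = 1.1e-11), with 27.2% of its exonic bases shared with HOXA11-AS. HOXA13 (chr7:27193503-27200091), which patterns the hand and the urogenital tract, had 16, 12, 14, 11 and 13 counts in EA.hy926 and 3, 3, 1, 4 and 5 in HMEC-1. Every EA.hy926 library exceeded every HMEC-1 library at these low counts (0.366 ± 0.0552 against 0.0819 ± 0.0399 CPM, SD, n = 5), and HOXA13 was called higher (log2FC = 2.15, SE 0.359, adjusted p = 1.1e-05). These are the genes whose upstream windows, shown earlier, held 11 and 40 CG dinucleotides. A relation of CG count to direction was not tested. HOTTIP, the antisense transcript that overlaps the start of HOXA13, had at most 1 count in any library.

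In the HOXB cluster, the 2 lines did not differ in HOXB7 beyond the spread between libraries, whereas several of its neighbours were called. HOXB7 (chr17:48607232-48633572) had 1337, 1286, 1430, 1541 and 1276 counts in EA.hy926 and 1313, 1549, 1680, 1490 and 1606 in HMEC-1. The ranges overlapped, with 38.0 ± 2.68 and 38.1 ± 2.29 CPM (SD, n = 5), a fold of 0.999 with an SE of 0.0479 on the log2 scale and an adjusted p of 0.975. With library totals and no composition factors, its log2FC was -0.14 (adjusted p = 0.0128). Elsewhere in the cluster, 4 HOXB genes were called lower in EA.hy926, beside 16.4% of all genes tested. Of these, HOXB8 and HOXB9 had at least 10 counts in every library of HMEC-1 only, so their direction is tied to the filter on low counts. HOXB5 and HOXB6 fell short of the 2-fold limit with log2FC values of -0.32 and -0.64.

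HOXB8 and HOXB9, whose loci lie within the annotated span of HOXB7, had few counts in EA.hy926. HOXB8, which acts in myeloid progenitors, had 4, 1, 3, 3 and 5 counts in EA.hy926 and 37, 55, 41, 50 and 44 in HMEC-1 (log2FC = -3.63, SE 0.283, adjusted p = 1.1e-10). HOXB9, which patterns the thoracic skeleton, had 0, 0, 0, 0 and 1 counts in EA.hy926 and 25, 33, 40, 38 and 33 in HMEC-1. From the summed counts HOXB9 was 152-fold lower in EA.hy926, with an exact 95% interval of 26.9 to 6040 that covers counting error only (adjusted p = 2.1e-11). The single count came from EA.hy926 replicate 5, and without that library HOXB9 was at least 9.27-fold lower against 3 counts per library. Neither gene shares exonic bases with another annotated gene.

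HOXB3 and HOXB4, towards the 3′ end, were also lower in EA.hy926. HOXB3, known for capillary morphogenesis in endothelial cells, had 62, 34, 43, 51 and 43 counts in EA.hy926 and 270, 273, 325, 296 and 283 in HMEC-1. It was 5.59-fold lower in EA.hy926 (log2FC = -2.48, SE 0.108, adjusted p = 3.8e-15). HOXB4, which expands haematopoietic stem cells, ranged from 20 to 35 counts in EA.hy926 and from 312 to 443 in HMEC-1, a 12.3-fold difference (log2FC = -3.62, SE 0.114, adjusted p = 1.2e-17). By RPKM over all exons, HOXB4 was the fifth HOX gene in HMEC-1 and stood at place 19 in EA.hy926.

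HOXB13 was the HOX gene with the highest log2FC and the single member at 1 CPM or more in 1 line that was not detected in the other. This gene of the prostate and hindgut lies apart from the rest of its cluster (chr17:48724763-48728750). It had 75, 48, 60, 65 and 71 counts in EA.hy926 and 2, 2, 1, 1 and 2 in HMEC-1. The summed counts of 319 and 8 gave a ratio of 44.3, with an exact 95% interval of 22.2 to 104 for counting error only (adjusted p = 8.4e-14). The level remained low in absolute terms, at 1.76 ± 0.225 CPM in EA.hy926 (SD, n = 5).

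The HOXC cluster was the one with a positive median log2FC, 1.19 over 8 genes tested, and held 4 of the 6 genes called higher. HOXC4, HOXC6, HOXC9 and HOXC13 were higher in EA.hy926, and HOXC10, HOXC11 and HOXC12 were lower. Over all genes tested, 19.1% were called higher and 16.4% lower. HOXC13 had at least 10 counts in every library of EA.hy926 only, and HOXC10, HOXC11 and HOXC12 of HMEC-1 only. The direction of these calls is tied to the filter on low counts. HOXC9 (chr12:53994895-54003337), which sets thoracic identity, was the most abundant HOXC gene of EA.hy926. Its counts were 556, 462, 474, 479 and 525 in EA.hy926 and 106, 132, 141, 133 and 133 in HMEC-1. No libraries overlapped, and HOXC9 was 4.30-fold higher in EA.hy926 (log2FC = 2.10, SE 0.0707, adjusted p = 4e-17).

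HOXC4 (chr12:54016931-54056030), the 3′-most gene of the cluster and known for its part in B cells, had 404, 362, 335, 367 and 352 counts in EA.hy926 and 61, 63, 62, 39 and 63 in HMEC-1. It was higher in every EA.hy926 library (log2FC = 2.81, SE 0.111, adjusted p = 7.1e-16). HOXC6 ranged from 477 to 594 counts in EA.hy926 and from 134 to 194 in HMEC-1 (log2FC = 1.83, SE 0.0733, adjusted p = 8.6e-16). The annotated exons of HOXC4 and HOXC6 overlap, with 17.5% and 16.1% of their exonic bases shared with other genes, so part of their reads may be common. HOXC8 had the highest HOXC mean of HMEC-1 over all exons, 2.05 ± 0.215 RPKM (SD, n = 5), with a range that overlapped that of HOXC9, and with canonical lengths HOXC6 and HOXC9 stood above it. It had 271, 256, 238, 254 and 287 counts in EA.hy926 and 164, 216, 215, 182 and 218 in HMEC-1. HOXC8 was higher in every EA.hy926 library once scaled to CPM, but under 2-fold (log2FC = 0.54, SE 0.0823, adjusted p = 3.1e-06).

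Directly 5′ of HOXC9, 3 successive genes went the other way. HOXC10, used in the hindlimb and lumbar region, had 3 to 9 counts in EA.hy926, against 30 to 64 in HMEC-1 (log2FC = -2.95, SE 0.268, adjusted p = 1.4e-09). HOXC11 had 0 counts in all 5 EA.hy926 libraries and 11, 15, 14, 28 and 11 in HMEC-1, at least 4.34-fold lower in EA.hy926 against 3 counts per library (adjusted p = 4.6e-07). HOXC12 had 0 counts in all 5 EA.hy926 libraries and 31, 37, 38, 31 and 32 in HMEC-1, at least 9.32-fold lower by the same floor (adjusted p = 2.5e-10). In HMEC-1 the levels of these 3 genes were themselves low, with means of 1.26, 0.392 and 0.843 CPM.

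HOXC13 (chr12:53938831-53946544), the hair and nail gene at the 5′ end, again had the direction of HOXC4 to HOXC9. Its counts were 22, 30, 24, 15 and 24 in EA.hy926 and 1, 6, 4, 3 and 1 in HMEC-1. The groups did not overlap, with 0.644 ± 0.184 CPM against 0.0724 ± 0.0496 CPM (SD, n = 5), and HOXC13 was called higher (log2FC = 3.05, SE 0.369, adjusted p = 1.3e-07).

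In the HOXD cluster no gene was called higher in EA.hy926, and HOXD3, HOXD4, HOXD9 and HOXD10 were called lower. Over all genes tested, the shares were 19.1% higher and 16.4% lower. HOXD4 and HOXD10 had at least 10 counts in every library of HMEC-1 only, so their direction is tied to the filter on low counts. HOXD8 (chr2:176129694-176132695) was the most abundant HOXD gene of EA.hy926 and high in both lines, with 994, 872, 917, 982 and 932 counts in EA.hy926 and 1424, 1730, 1845, 1674 and 1547 in HMEC-1. The ranges did not overlap, but the difference stayed under 2-fold (log2FC = -0.65, SE 0.0344, adjusted p = 1.1e-13). HOXD8 shares 24.4% of its exonic bases with the antisense transcript HOXD-AS2. Next to it, HOXD9 (chr2:176122719-176124937), a posterior limb and trunk gene, was the most abundant HOXD gene of HMEC-1. It had 197, 180, 194, 197 and 176 counts in EA.hy926 and 1206, 1504, 1529, 1475 and 1284 in HMEC-1. The 6.67-fold difference came with a small spread among libraries (log2FC = -2.74, SE 0.0534, adjusted p = 2.8e-21).

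HOXD10 (chr2:176108790-176119937), which holds endothelial cells in a quiescent state, had the lowest log2FC of its cluster. Its counts were 1, 4, 13, 6 and 8 in EA.hy926 and 165, 186, 217, 179 and 149 in HMEC-1. It was 24.7-fold lower in EA.hy926 (log2FC = -4.63, SE 0.225, adjusted p = 2.9e-14). Its exons share 18.2% of their bases with HOXD11, which had at most 2 counts in any library. HOXD3, a gene of angiogenic endothelium, had 28, 37, 24, 24 and 28 counts in EA.hy926 and 74, 72, 83, 57 and 68 in HMEC-1 (log2FC = -1.17, SE 0.174, adjusted p = 2.4e-06). HOXD3 lost its call when tested against a fold limit of 2 instead of against no change (adjusted p = 0.179). HOXD4, a gene of the hindbrain and neck, had 7, 5, 2, 9 and 5 counts in EA.hy926 and 19, 19, 27, 21 and 16 in HMEC-1 (log2FC = -1.69, SE 0.297, adjusted p = 2.1e-05). HOXD1 was not called, with overlapping ranges of 5 to 14 and 12 to 24 counts (adjusted p = 0.204), and 60.1% of its exonic bases lie in other genes, HAGLR among them. HOXD11, HOXD12 and HOXD13, the 5′ end of the cluster, were not detected in either line, and HOXD12 had 0 counts in every library.

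Read across clusters, paralogs at the same position often differed from one another. At position 13, HOXA13, HOXB13 and HOXC13 were all called higher in EA.hy926, and HOXD13 was not detected. These 3 were the tested members with at least 10 counts in every library of EA.hy926 only. They entered the test through the line in which they were high, so their shared direction is tied to the filter. At position 10, HOXA10, HOXC10 and HOXD10 were all lower in every EA.hy926 library, with log2FC values of -0.96, -2.95 and -4.63. Position 9 was mixed, since HOXC9 was higher and HOXB9 and HOXD9 were lower in EA.hy926, with HOXA9 under 2-fold. Position 4 was mixed too, with HOXC4 higher (log2FC = 2.81) and HOXA4, HOXB4 and HOXD4 lower (log2FC = -1.70, -3.62 and -1.69). By region of the cluster, 4 of 6 tested genes of positions 1 to 3 were called lower and none higher. Of 14 tested genes of positions 4 to 8, 7 were called lower and 2 higher, and of 13 tested genes of positions 9 to 13, 7 were called lower and 4 higher. Over all genes tested, 16.4% were called lower and 19.1% higher. Of those called, HOXA4, HOXA6, HOXB8 and HOXD4 at positions 4 to 8 had at least 10 counts in every library of HMEC-1 only. The same held for HOXB9, HOXC10, HOXC11, HOXC12 and HOXD10 at positions 9 to 13. The counts by region are thus tied to the filter on low counts.

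Long noncoding RNAs (lncRNAs) of the clusters were taken as all annotated lncRNA genes within 20 kb of a cluster. Of 30 such genes 11 were tested, 6 were called lower in EA.hy926 and 1 higher, beside 16.4% and 19.1% of all genes tested. Of those called, HOTAIR, HAGLROS, HOXD-AS2 and HOXA-AS3 had at least 10 counts in every library of HMEC-1 only, and HOXC-AS2 of EA.hy926 only. They entered the test through the line in which they were high, so the counts by direction are tied to the filter on low counts. ENSG00000260597, not called (log2FC = 0.99), was called higher with DESeq2 and without EA.hy926 replicate 4, HMEC-1 replicate 2 or HMEC-1 replicate 3. HOTAIR, an antisense transcript of the HOXC cluster known for binding the Polycomb complex, had 0, 0, 1, 1 and 0 counts in EA.hy926 and 33, 23, 30, 30 and 37 in HMEC-1. The summed counts of 2 and 153 gave a 68.8-fold lower level in EA.hy926, with an exact 95% interval of 18.7 to 573 for counting error only (adjusted p = 3.4e-10). Without EA.hy926 replicate 3 or 4, which held 1 count each, the ratio was 111 or 108. HOTAIR (chr12:53962308-53974956) overlaps the span of HOXC11 and lies beside HOXC12, both of which had 0 counts in EA.hy926. HOXC-AS2, which overlaps HOXC9, had the direction of HOXC9, with 15, 12, 18, 18 and 20 counts in EA.hy926 and 4, 6, 3, 11 and 2 in HMEC-1 (log2FC = 1.80, SE 0.345, adjusted p = 6.2e-05).

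In the HOXD cluster, HAGLROS had 4, 0, 2, 1 and 1 counts in EA.hy926 and 59, 80, 52, 47 and 68 in HMEC-1 (log2FC = -5.02, SE 0.369, adjusted p = 3.9e-11). Without EA.hy926 replicate 1, which held 4 of its 8 counts in that line, the log2FC of HAGLROS was -5.62. HOXD-AS2, which overlaps HOXD8, had 10, 6, 11, 20 and 14 counts in EA.hy926 and 265, 252, 327, 301 and 284 in HMEC-1 (log2FC = -4.39, SE 0.153, adjusted p = 7.7e-17). HAGLR, from the same cluster, did not follow them, with means of 26.6 and 26.2 CPM and overlapping ranges (log2FC = 0.02, adjusted p = 0.596). In the HOXA cluster HOTAIRM1, HOXA-AS2 and HOXA-AS3 were called lower, with log2FC values of -2.82, -2.81 and -1.20, and HOXA-AS3 lost its call with glmTreat against a fold limit of 2 (adjusted p = 0.233). Of these lncRNAs, HOXD-AS2, HAGLROS, HOTAIRM1 and HOXA-AS3 share 37.6% to 49.3% of their exonic bases with other genes.

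The TALE homeodomain proteins of the PBX, MEIS and PKNOX families bind DNA together with HOX proteins. Of 9 such genes 5 were tested and 1 was called, beside a background of 35.5% of all genes tested. MEIS1 had 260, 217, 219, 268 and 260 counts in EA.hy926 and 41, 38, 35, 24 and 41 in HMEC-1. All EA.hy926 libraries lay above all HMEC-1 libraries (log2FC = 2.92, SE 0.128, adjusted p = 4.7e-15). The other tested cofactors were present in both lines, with PBX2 and MEIS2 overlapping between the lines (adjusted p = 0.918 and 0.389) and PBX3 lower in EA.hy926 but under 2-fold (log2FC = -0.87). Without factors for library composition, PBX3 passed the 2-fold limit as well.

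Among 31 genes known to regulate HOX clusters, 27 were tested, 7 were called higher in EA.hy926 and 0 lower, beside 19.1% and 16.4% of all genes tested. This split moved with the processing, to 5 higher and 1 lower with library totals and to 5 higher and 0 lower with glmTreat. RING1, a Polycomb subunit just inside the 2-fold limit (log2FC = -0.99), was the gene called lower, with library totals (log2FC = -1.12), with no filter on low counts, and without EA.hy926 replicate 2 or any 1 of HMEC-1 replicates 2 to 5. With edgeR, 8 were lower and 17 higher at an adjusted p under 0.05 alone. That cut was passed by 85.8% of all genes tested, 6940 higher and 7057 lower. RARB, the retinoic acid receptor that is itself induced by retinoic acid, had 2851, 2582, 2725, 2788 and 2706 counts in EA.hy926 and 77, 92, 113, 86 and 74 in HMEC-1 (log2FC = 5.10, SE 0.0522, adjusted p = 6.3e-26). CYP26B1, an enzyme that degrades retinoic acid, had 1526, 1309, 1384, 1561 and 1431 counts in EA.hy926 and 23, 27, 24, 26 and 35 in HMEC-1 (log2FC = 5.88, SE 0.0763, adjusted p = 2.9e-24). These retinoic acid genes stood furthest apart between the lines within the list. CBX2, a Polycomb subunit that reads a histone mark of silent HOX genes, had 2049, 1726, 1943, 2104 and 2000 counts in EA.hy926 and 375, 394, 500, 404 and 407 in HMEC-1 (log2FC = 2.39, SE 0.0412, adjusted p = 3.3e-22). CBX8 and PHC1, further Polycomb subunits, and the H3K27 demethylase KDM6B were also higher, with log2FC values of 1.07 to 1.47. CBX8 and PHC1 lost their calls with library totals, with log2FC values of 0.94 and 0.93, and with glmTreat (adjusted p = 0.217 and 0.0725). The core Polycomb genes EZH2, SUZ12 and EED were lower in EA.hy926 by less than 2-fold (log2FC = -0.20, -0.51 and -0.08), and CDX1, CDX2 and CDX4, which activate posterior HOX genes in the embryo, had at most 1 count.

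**Figure D5:**
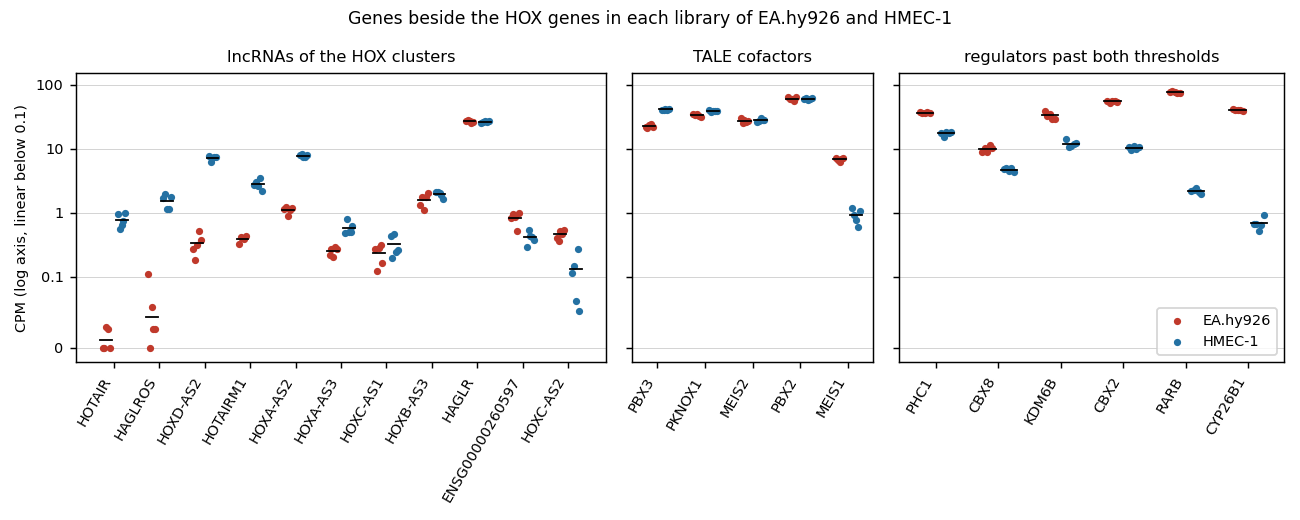
CPM in each library (points, 5 per line) with the mean of each line (bar) for the 11 tested lncRNAs of the clusters, the 5 tested TALE cofactors and 6 of the 7 called regulators, on an axis that is logarithmic above 0.1 CPM and linear below, ordered by log2FC. HOTAIR, HAGLROS and HOXD-AS2 lie low in EA.hy926, and MEIS1, RARB and CYP26B1 lie high.

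The nearest protein-coding genes outside the clusters were taken as 3 on each side of each cluster. Of these 24 genes 19 were tested and 2 were called (10.5%), beside 35.5% of all genes tested. LNPK, an endoplasmic reticulum gene next to the HOXD cluster, had 797, 794, 871, 859 and 837 counts in EA.hy926 and 1982, 2335, 2683, 2314 and 2253 in HMEC-1 (log2FC = -1.32, SE 0.0374, adjusted p = 1.8e-18). SMUG1, a DNA repair gene next to the HOXC cluster, had 920, 864, 994, 1065 and 979 counts in EA.hy926 and 481, 519, 630, 507 and 508 in HMEC-1. It stood at the 2-fold limit (log2FC = 1.02, SE 0.0477, adjusted p = 1.4e-14) and lost its call without HMEC-1 replicate 2, without HMEC-1 replicate 4, with library totals, with no filter, or with glmTreat. The homeobox genes EVX1 and EVX2 at the 5′ ends of the HOXA and HOXD clusters had at most 1 count in any library.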

How the data were processed

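Messenger RNA of 10 libraries, 5 of EA.hy926 and 5 of HMEC-1 cells, was selected with oligo(dT) beads and sequenced on a NovaSeq 6000. Reads were aligned by the authors to GRCh38 with HISAT2, and the deposited values are whole-number read counts per gene, with no normalization. The study's methods name HTSeq for counting, whereas the submitters' processing notes list fastp, featureCounts and DESeq2. The annotation release and strand setting are not given in the sources used here.

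Genes were named with GENCODE 44, which matched 56434 of 60448 identifiers (93.4%). Counts were tested with edgeR 4.0.16 (filterByExpr, TMM factors, quasi-likelihood test, R 4.3.3) over 16310 genes, with Benjamini-Hochberg adjustment and the study's thresholds. SE is the log2FC divided by the root of the F statistic. CPM used TMM-scaled library sizes. RPKM divided CPM by the union of annotated exons. Intervals, from summed counts, and the floor of 3 counts per library cover counting error only.

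Values are given for each cluster's most abundant gene in each line, the 2 highest and 2 lowest log2FC among called genes, HOXB13, and up to 3 called genes per direction in other lists. Some items are not reported here, although the counts over lists include them. HOXB4, HOXC6 and HOXC10 were added after their values were seen. Members and lists were chosen with earlier results of these data known. Alternatives were DESeq2 1.42.0, limma-voom (limma 3.58.1), glmTreat, other filters and scalings, a replicate block, and leaving out each library. Tested on simulated counts with 200 genes changed 3-fold and 1 fixed dispersion, edgeR called all 200 and 0 others (16052 genes). In the data 35.5% of genes were called, so this simulation does not measure the error rate here, nor that of genes with few counts.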

Additional observations from a re-analysis of the deposited data

Results flagged for a closer look

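In 6 of 71 sets of 5 libraries checked, 1 library lay far from the other 4, with a gap over 0.71 of the range. Chance gives about 1 in 20. In HMEC-1, replicate 5 had 42.0 CPM of HOXB7 (others 36.4 to 38.0) and a HOXB share of the summed HOX RPKM of 35.2% (others 33.4% to 33.9%). HMEC-1 replicate 4 had 0.687 CPM of HOXC11 (others 0.288 to 0.368) and 0.589 CPM of HOXD1 (others 0.304 to 0.371). In EA.hy926, replicate 3 had 3.27 CPM of HOXA3 (others 2.14 to 2.43) and replicate 2 had 1.11 CPM of HOXD3 (others 0.625 to 0.758). Leaving out any of these libraries changed no call of these 5 genes.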

How the results depend on the processing

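Of the 33 tested HOX genes, 30 kept their call under all alternatives run that could test them. HOXA6 (adjusted p = 0.0519) and HOXD3 (0.179) lost theirs with glmTreat against a 2-fold limit, which left 22 calls. HOXA10 gained one with library totals (25 calls) and without EA.hy926 replicate 3 (24 to 25 calls without each library in turn). No called gene changed direction, and HOXB7, not called, changed sign. DESeq2 and limma-voom each gave 24. With at least 10 counts in every library, 12 HOX genes were called, since fewer were tested, as well as 2 lncRNAs and 3255 genes in all. Without a filter these were 27, 15 and 9312, and 3 TALE cofactors. Library totals shifted the median log2FC by -0.135, took the share of calls that were higher from 53.8% to 47.7%, and gave 2 TALE cofactors and 1 flanking gene. glmTreat also gave 1 flanking gene. Without each library in turn, 5945 to 6000 genes, 1 to 2 TALE cofactors and 1 to 2 flanking genes were called. Among HOX genes with under 20% of exonic bases shared, 20 of 24 were called, beside 35.5% of all genes tested. Several of these, such as HOXA13, HOXB8 and HOXD10, passed the filter on low counts through 1 line only. Replicate numbers did not pair the samples (correlations of deviations -0.0228 to 0.0389), and a replicate block gave 5786 genes and the same 24 HOX calls. With canonical lengths, the shares in EA.hy926 were 38.1% for HOXB, 33.1% for HOXC and 16.0% for HOXD, and in HMEC-1 24.9% for HOXA, 7.55% for HOXC and 33.2% for HOXD. Depth limits the genes under 10 counts.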
